A study of Mus musculus with 12 samples.

Results

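The genes described here are 9 enzymes that make pyrimidine nucleotides and convert ribonucleotides to the deoxynucleotides of DNA, of 22180 genes tested in all. They were chosen by name and not by a measured value, though with earlier results of these data known: *Cad*, *Dhodh*, *Umps*, *Ctps* and *Ctps2* for the route that ends in cytidine triphosphate, and *Rrm1*, *Rrm2*, *Tyms* and *Dut* for the steps that supply deoxynucleotides. All 9 were measured, on 11 array rows that carry 1 gene symbol, and the row with the highest mean over the arrays stands for a gene. The cells were central regulatory T (cTreg) cells, the resting CD62L-high, CD44-low subset of Foxp3+ regulatory T cells, sorted by their YFP reporter from spleen and lymph nodes of Foxp3-YFP+ transgenic mice on a C57BL/6 background. RNA was measured on 12 Mouse Gene 2.0 ST arrays, in 4 groups of 3 samples, biological triplicates by the design text of the series. Of these, 1 group received 500 nM PP242, 1 group 50 nM Torin 1 and 1 group the vehicle DMSO during 20 h of culture with IL-2 and antibodies to CD3 and CD28, and the fourth was taken unstimulated at 0 h and is also DMSO-treated by its label. PP242 and Torin 1 are ATP-competitive inhibitors of the mTOR kinase, here at unequal doses. No group was held for 20 h without stimulation, so activation cannot be told apart from 20 h in culture with IL-2.

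Cells can build pyrimidines from glutamine, bicarbonate and aspartate or take up and rephosphorylate finished nucleosides. In the first route Cad carries out the opening reactions, Dhodh oxidizes dihydroorotate at the inner mitochondrial membrane, Umps closes the route at uridine monophosphate, and the CTP synthases Ctps and Ctps2 turn uridine triphosphate into cytidine triphosphate. Ribonucleotide reductase, made of the large subunit Rrm1 and a small subunit such as Rrm2, then reduces ribonucleotides to deoxyribonucleotides, Dut hydrolyses dUTP to dUMP, and Tyms methylates dUMP to the thymidine nucleotide. Resting T cells hold small pyrimidine and deoxynucleotide pools and enlarge them before they copy DNA. The arrays measured RNA and not the enzymes or the nucleotides.

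The stretches around the transcription start are shown for the 3 genes with the largest falls with Torin 1, both reductase subunits and *Tyms*, and for the CTP synthase pair, which moved in opposite directions. They are RefSeq sequences of the mouse build GRCm38.p6, from 100 bases before to 50 after the farthest upstream start that has a promoter window in the table, written 5′ to 3′ on the gene's own strand: chr7:102441595-102441744 on the plus strand for *Rrm1*, chr12:24708154-24708303 on the plus strand for *Rrm2*, chr5:30073576-30073725 on the minus strand for *Tyms*, chr4:120570227-120570376 on the minus strand for *Ctps* and chrX:162901460-162901609 on the plus strand for *Ctps2*. The gene records of *Ctps2* and *Tyms* begin farther upstream than the start used, so these stretches need not hold their outermost promoter. Capitals mark short letter patterns on either strand: CCAAT, the E-box (CACGTG) and the GC box (GGGCGG).
Rrm1: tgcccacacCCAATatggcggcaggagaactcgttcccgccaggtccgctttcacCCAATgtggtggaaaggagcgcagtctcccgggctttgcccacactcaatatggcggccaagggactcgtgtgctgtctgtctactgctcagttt
Rrm2: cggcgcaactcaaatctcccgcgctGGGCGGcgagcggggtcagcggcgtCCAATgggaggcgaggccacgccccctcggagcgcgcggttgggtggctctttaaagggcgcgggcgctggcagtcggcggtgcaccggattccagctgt
Tyms: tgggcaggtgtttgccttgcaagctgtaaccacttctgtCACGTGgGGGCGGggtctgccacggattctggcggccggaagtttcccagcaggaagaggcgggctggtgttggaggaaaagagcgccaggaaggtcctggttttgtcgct
Ctps: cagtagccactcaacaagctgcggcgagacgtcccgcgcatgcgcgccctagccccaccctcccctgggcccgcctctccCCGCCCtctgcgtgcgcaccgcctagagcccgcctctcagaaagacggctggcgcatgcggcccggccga
Ctps2: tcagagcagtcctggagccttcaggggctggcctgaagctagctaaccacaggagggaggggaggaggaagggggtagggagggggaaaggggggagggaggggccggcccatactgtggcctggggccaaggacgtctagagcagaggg
*Rrm1* and *Rrm2* share the letters CCAAT close to the start, at positions -91 and -45 for *Rrm1* and -50 for *Rrm2*, which also has a GC box at -75, while *Tyms* has an E-box at -61 just before a GC box at -54. *Ctps* has a GC box on the other strand at -20, and the stretch shown for *Ctps2* holds none of these letters, although another of its windows has CCAAT at -68. In the windows from 250 bases before to 50 after each start, RefSeq windows matched 8 of the 9 genes, with 11 windows, and *Dhodh* was not matched. CCAAT stood in a window of 3 of these 8 genes (*Rrm1*, *Rrm2* and *Ctps2*) against 37.4% of 32851 mouse promoters of the same length, the GC box in 6 against 35.7%, and the E-box in 1 against 7.15%. An E2F pattern, searched on both strands as TTTCCCGC or TTTCGCGC or TTTGCCGC or TTTGGCGC, stood in 2.26% of promoters and in 0 of the 8 genes. Only these exact letters were searched, so the 0 does not show that the genes lack E2F sites. A gene was counted if any of its windows held the letters, while the shares are over single windows. The shares are a description of letters in these windows.

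After 20 h of activation with DMSO, 8 of the 9 genes rose and *Ctps2* fell. Calls were made with limma's moderated test, with p values adjusted by Benjamini-Hochberg across the whole set of 22180 genes and a threshold of 0.05. Of all genes, 11.8% were called higher and 12.1% lower in this comparison. Shares of all genes, here and below, are over the 22180 and so include dim genes. A filter that asks for at least 3 arrays above the dim level of 4.85 kept 13114 of them, all 9 enzymes included. The median change of the 9 genes was 1.41 on the log2 scale, and that of all genes was -0.04. In all 8 that rose, the DMSO arrays lay above every unstimulated array, as they did for 17.4% of all genes. Changes with both mTOR inhibitors ran in the opposite direction. With Torin 1, 6 were lower and *Ctps2* higher than with DMSO, where 4.79% of all genes were called lower and 3.33% higher. With PP242, 8 were lower and *Ctps2* higher, against 9.27% and 7.38% of all genes. The median changes of the 9 were -1.24 with PP242 and -0.74 with Torin 1, and that of all genes was 0.01 in both. Levels did not overlap with those of the DMSO arrays in the 6 genes that fell with Torin 1 and in the 8 that fell with PP242, and 12.3% and 15.3% of all genes were lower in that way. The comparisons with DMSO share the DMSO arrays, and those with unstimulated cells share the unstimulated arrays. In these bulk samples fewer cells with a transcript and less of it per cell cannot be told apart.

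**Figure D1:**
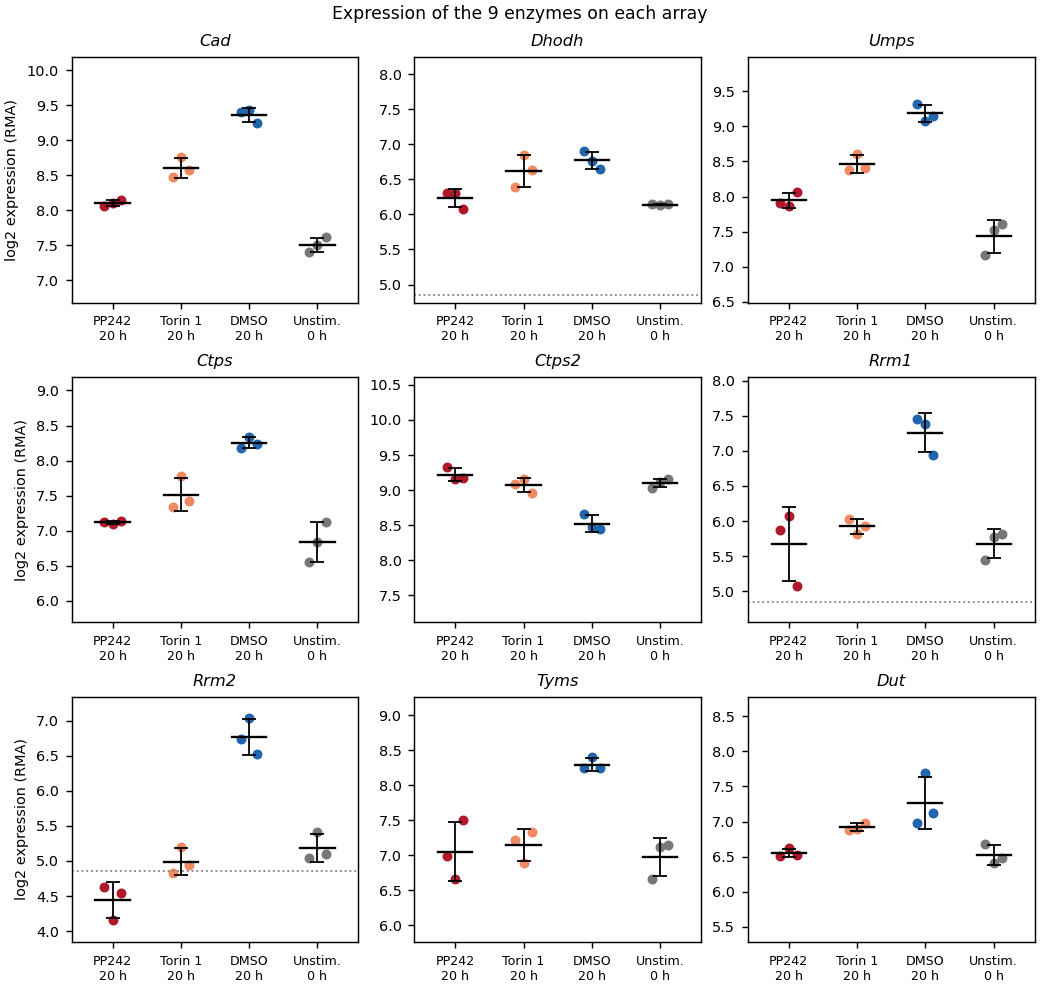
Expression of the 9 enzymes on each of the 12 arrays, in log2 units (y axes, each spanning the same number of units), for PP242, Torin 1 and DMSO at 20 h and unstimulated cells at 0 h (x axes); points are arrays, horizontal lines group means, bars 1 SD, and the dotted line marks the dim level of 4.85. In 8 panels the DMSO arrays are the highest as a group, and in the *Ctps2* panel they are the lowest.

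*Cad* (chr5:31054620-31078479, row 17435978), whose protein joins carbamoyl phosphate synthetase, aspartate transcarbamylase and dihydroorotase, read 8.06, 8.10 and 8.15 log2 units with PP242, 8.48, 8.76 and 8.57 with Torin 1, 9.41, 9.43 and 9.24 with DMSO and 7.41, 7.50 and 7.61 in unstimulated cells. The 4 groups did not overlap and stood in the order DMSO, Torin 1, PP242, unstimulated. Activation raised it 3.60-fold, or by 1.85 on the log2 scale (SE 0.10, adjusted p = 4.92e-08). It fell by 0.75 with Torin 1 (adjusted p = 0.00073) and by 1.25 with PP242 (adjusted p = 4.5e-06). Cells with either inhibitor still lay above unstimulated cells, by 0.60 with PP242 (adjusted p = 0.00562) and by 1.10 with Torin 1 (adjusted p = 2.31e-05). Of the log2 rise seen with DMSO, 32.3% was present with PP242 and 59.3% with Torin 1.

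*Umps* (chr16:33954782-33967038, row 17329937), which joins orotate phosphoribosyltransferase and orotidylate decarboxylase in 1 protein, had *Cad* as its closest match among the genes that passed the filter on dim genes, with a Pearson r of 0.989 over the 12 arrays. Its levels were 7.91, 7.87 and 8.07 with PP242, 8.38, 8.61 and 8.40 with Torin 1, 9.32, 9.08 and 9.15 with DMSO and 7.16, 7.52 and 7.61 in unstimulated cells, again without overlap. The rise on activation was 1.75 (SE 0.13, adjusted p = 4.13e-07). It fell with both inhibitors, with changes of -0.72 with Torin 1 (adjusted p = 0.00337) and -1.24 with PP242 (adjusted p = 2.36e-05). The distance to unstimulated cells was 1.03 with Torin 1 (adjusted p = 0.000189). With PP242 it was 0.52 (adjusted p = 0.0424), a call that was lost in 13 of 22 alternative analyses. Among these were the fits without replicate 1 or 2 of the unstimulated cells, replicate 3 of DMSO, replicate 1 or 3 of Torin 1 or any replicate of PP242, with adjusted p from 0.0557 to 0.169. The share of the rise present was 29.4% with PP242 and 58.8% with Torin 1.

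*Dhodh* (chr8:109593244-109608699, row 17512816), the step between those of *Cad* and *Umps* and the one that passes electrons to ubiquinone, read 6.30, 6.31 and 6.08 with PP242, 6.39, 6.85 and 6.63 with Torin 1, 6.90, 6.76 and 6.65 with DMSO and 6.15, 6.14 and 6.14 in unstimulated cells. The Torin 1 arrays overlapped those with DMSO, and the PP242 arrays overlapped the unstimulated ones. It rose by 0.63 on activation (SE 0.12, adjusted p = 0.00162) and fell by 0.54 with PP242 (adjusted p = 0.00712). The difference between Torin 1 and DMSO was -0.15, with a 95% confidence interval from -0.41 to 0.12 (adjusted p = 0.569). *Dhodh* lay 0.48 above unstimulated cells with Torin 1 (adjusted p = 0.0256), and this call was lost in 7 of 22 alternatives, with adjusted p from 0.0694 to 0.109 without any 1 of the unstimulated replicates or without replicate 2 or 3 of Torin 1. With PP242 the distance was 0.09 (adjusted p = 0.832).

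The 2 CTP synthases gave opposite patterns. *Ctps* (chr4:120539868-120570276, row 17429454), whose human counterpart CTPS1 is known to be needed for lymphocyte proliferation, read 7.12, 7.09 and 7.14 with PP242, 7.34, 7.78 and 7.43 with Torin 1, 8.18, 8.34 and 8.24 with DMSO and 6.55, 6.84 and 7.12 in unstimulated cells. Its DMSO arrays were the highest, and its PP242 arrays overlapped the unstimulated ones. *Ctps2* (chrX:162901268-163034541, row 17539434), which catalyses the same reaction, read 9.33, 9.16 and 9.17 with PP242, 9.09, 9.15 and 8.96 with Torin 1, 8.66, 8.47 and 8.44 with DMSO and 9.03, 9.12 and 9.15 in unstimulated cells. Here the DMSO arrays lay below all other arrays. *Ctps* rose by 1.41 on activation (SE 0.14, adjusted p = 6.94e-06), while *Ctps2* fell by 0.58 (SE 0.10, adjusted p = 0.000745). Torin 1 lowered *Ctps* (-0.74, adjusted p = 0.00573) and raised *Ctps2* (0.54, adjusted p = 0.00471). PP242 did the same, with changes of -1.13 for *Ctps* (adjusted p = 0.000109) and 0.70 for *Ctps2* (adjusted p = 0.000322). Against unstimulated cells, *Ctps* was higher by 0.68 with Torin 1 (adjusted p = 0.00905). With PP242 the distance of *Ctps* was 0.28 and missed the threshold (interval -0.02 to 0.59, adjusted p = 0.42). *Ctps2* did not differ from unstimulated cells past the threshold with either inhibitor, with intervals from -0.10 to 0.34 for PP242 and from -0.25 to 0.18 for Torin 1. Over the 12 arrays the pair had a Pearson r of -0.80, where the arrays share their groups. The deviations of the pair from their group means had an r of 0.34. The levels of different genes on the array are not comparable, so these values do not say which synthase had more RNA.

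**Figure D2:**
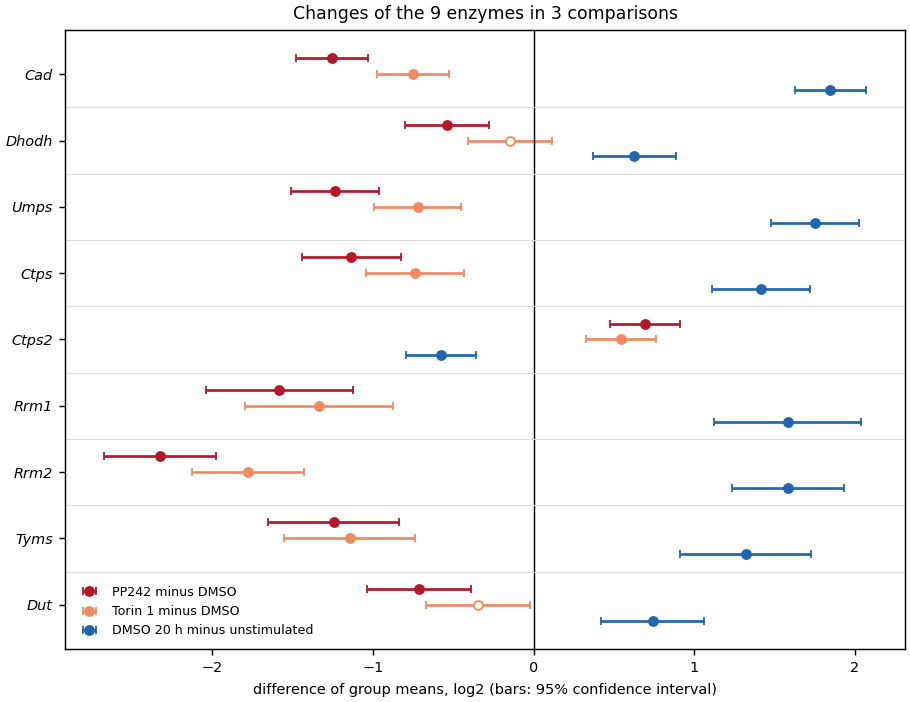
Differences of group means in log2 units (x axis) for each of the 9 enzymes (rows), with PP242 minus DMSO in red, Torin 1 minus DMSO in orange and DMSO at 20 h minus unstimulated in blue; bars are 95% confidence intervals, and open points missed the adjusted p threshold of 0.05. The open points are *Dhodh* and *Dut* with Torin 1, and *Ctps2* is the gene whose points lie on the opposite sides from the other 8.

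Both subunits of ribonucleotide reductase rose on activation and fell with both inhibitors. *Rrm1* (chr7:102441695-102469771, row 17481102), the large subunit with the catalytic and the allosteric sites, read 5.88, 6.08 and 5.08 with PP242, 6.02, 5.82 and 5.93 with Torin 1, 7.45, 7.39 and 6.94 with DMSO and 5.44, 5.78 and 5.82 in unstimulated cells. All 3 other groups overlapped each other below the DMSO arrays, and replicate 3 with PP242 was the lowest array of the 12. The change was 1.58 on activation (SE 0.21, adjusted p = 9.08e-05), -1.33 with Torin 1 (adjusted p = 0.00189) and -1.58 with PP242 (adjusted p = 0.000197). The distance from unstimulated cells was 0.25 with Torin 1 (interval -0.21 to 0.71, adjusted p = 0.554), and with PP242 the interval ran from -0.46 to 0.46. Without replicate 3 of PP242 that distance was 0.30 (adjusted p = 0.538).

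*Rrm2* (chr12:24708254-24714146, row 17274540), the small subunit whose protein appears in S phase and is removed in mitosis, read 4.63, 4.15 and 4.54 with PP242, 4.82, 5.20 and 4.94 with Torin 1, 6.74, 7.04 and 6.53 with DMSO and 5.04, 5.41 and 5.10 in unstimulated cells. The PP242 arrays were the lowest and lay under 4.85, the median of array rows without a gene symbol, which serves here as the dim level. *Rrm2* was above that level on 8 of the 12 arrays. It rose by 1.58 on activation (SE 0.16, adjusted p = 8.46e-06) and fell by 1.78 with Torin 1 (adjusted p = 3.32e-05). Against DMSO it was lower with PP242 by at least 3.78-fold, counted from the dim level (adjusted p = 1.14e-06). It was also lower with PP242 than in unstimulated cells, at least 1.26-fold by the same count (adjusted p = 0.0235), but 6 of 22 alternatives lost that call. Leaving out replicate 2 or 3 of the unstimulated cells or of PP242 gave adjusted p from 0.0512 to 0.109. With Torin 1 the distance from unstimulated cells was -0.19 (interval -0.54 to 0.16, adjusted p = 0.541). The other row of *Rrm2* (17547690) was dim on every array, between 2.47 and 3.10, and its changes were 0.39, -0.40 and -0.40 for activation, Torin 1 and PP242. With the median of both rows, the changes of *Rrm2* became 0.98, -1.09 and -1.36.

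*Tyms* (chr5:30038546-30073645, row 17446627), thymidylate synthase, read 6.99, 6.67 and 7.50 with PP242, 7.22, 6.89 and 7.33 with Torin 1, 8.24, 8.40 and 8.24 with DMSO and 6.66, 7.12 and 7.14 in unstimulated cells. As with *Rrm1*, the other 3 groups overlapped below DMSO. The change was 1.32 on activation (SE 0.19, adjusted p = 0.000155), -1.15 with Torin 1 (adjusted p = 0.00243) and -1.24 with PP242 (adjusted p = 0.00047). The distance from unstimulated cells was 0.08 with PP242 (interval -0.33 to 0.48) and 0.17 with Torin 1 (interval -0.23 to 0.58), and leaving out single arrays moved it between -0.147 and 0.268 with PP242 and between 0.019 and 0.303 with Torin 1. A further row (17236305), shared with the pseudogene *Tyms-ps*, read 3.56 to 4.44 and was not used.

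*Dut* (chr2:125247248-125259049, row 17375641), the dUTPase that keeps uracil out of DNA, had the widest spread with DMSO, where replicate 2 stood highest. It read 6.51, 6.62 and 6.52 with PP242, 6.87, 6.90 and 6.98 with Torin 1, 6.98, 7.68 and 7.12 with DMSO and 6.68, 6.41 and 6.48 in unstimulated cells. It rose by 0.74 on activation (SE 0.15, adjusted p = 0.00222) and fell by 0.71 with PP242 (adjusted p = 0.00448). The difference between Torin 1 and DMSO was -0.34 (interval -0.67 to -0.02, adjusted p = 0.206), and -0.13 without replicate 2 of DMSO. The other row of *Dut* (17375651) read 3.59 to 4.06 with no called change. With the median of both rows, the activation change became 0.38 (adjusted p = 0.0208) and the PP242 change -0.32, which missed the threshold (adjusted p = 0.0637).

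Set against unstimulated cells, the 4 genes called higher with Torin 1 were *Cad*, *Dhodh*, *Umps* and *Ctps*, where 4.42% of all genes were called higher. *Rrm1*, *Rrm2*, *Tyms* and *Dut* were not called, although all Torin 1 arrays of *Dut* lay above the unstimulated ones (0.40, adjusted p = 0.132, and 0.0306 without replicate 2 of DMSO). With PP242, 2 were called higher, *Cad* and *Umps*, and *Rrm2* lower, against 1.73% and 1.34% of all genes. The medians of the 9 genes were 0.09 with PP242 and 0.40 with Torin 1, and those of all genes were -0.02 in both comparisons. Whether the early genes and the deoxynucleotide genes differ in how much of their rise was present was not tested, since genes are not replicates.

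**Figure D3:**
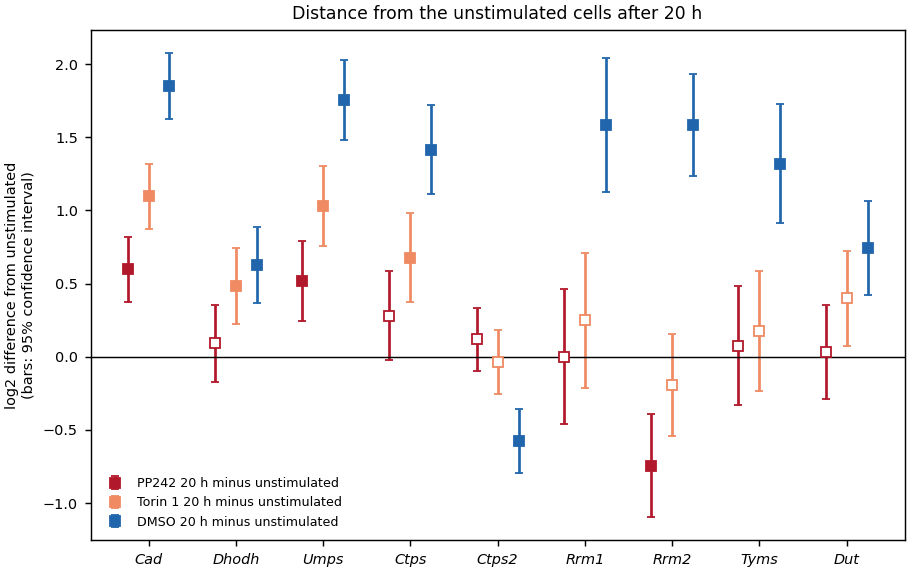
Difference from unstimulated cells in log2 units (y axis) for each enzyme (x axis) after 20 h with PP242 (red), Torin 1 (orange) and DMSO (blue); bars are 95% confidence intervals and open squares missed the adjusted p threshold of 0.05. The squares for *Rrm1*, *Tyms* and *Ctps2* with either inhibitor are open and their bars cross 0, while those for *Cad* and *Umps* are filled in every condition.

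The direct comparison of PP242 with Torin 1 called 0 of the 9 genes with limma, where 0.392% of all genes were called in either direction. At an unadjusted p under 0.05 there were 6, *Cad*, *Dhodh*, *Umps*, *Ctps*, *Rrm2* and *Dut*, all lower with PP242, against 12.1% of all genes. *Cad* came nearest to the threshold, at -0.50 (interval -0.72 to -0.28, adjusted p = 0.0632), followed by *Umps* at -0.52 (interval -0.79 to -0.24, adjusted p = 0.106). The differences of *Tyms* (interval -0.51 to 0.31), *Rrm1* (interval -0.71 to 0.21) and *Ctps2* (interval -0.06 to 0.37) included 0. The sign of the *Rrm1* difference turned without replicate 3 of PP242 (0.0513), and that of *Tyms* without replicate 2 of PP242 (0.0932). The doses of the inhibitors differ by design, and a difference that misses the threshold does not show that they act alike.

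Neighbouring enzymes were counted over lists that were written with earlier results of these data known. Of 8 kinases that phosphorylate pyrimidine nucleotides, 6 were measured, and 5 rose on activation and 0 fell. *Nme1*, a nucleoside diphosphate kinase, rose by 1.91 (adjusted p = 4.07e-05), and it fell by 0.95 with Torin 1 (adjusted p = 0.0226) and by 1.50 with PP242 (adjusted p = 0.000558). Of the kinases 4 fell with Torin 1 and 5 fell with PP242. *Dtymk*, the thymidylate kinase that follows Tyms, was 1.09 higher on activation (adjusted p = 2.02e-05) and fell by 0.50 with PP242 (adjusted p = 0.0127), while its change with Torin 1 was -0.35 (adjusted p = 0.104). The list's median changes were 1.03, -0.68 and -0.68 for activation, Torin 1 and PP242.

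Of 7 other enzymes around the deoxynucleotide pool, 6 were measured. On activation 4 rose, and each of them was called lower with Torin 1 and with PP242. These were *Shmt1* and *Mthfd1*, which supply folate-bound carbon to Tyms, *Dctd*, which deaminates dCMP to dUMP, and *Dctpp1*, which hydrolyses dCTP. *Mthfd1* rose by 2.26 (adjusted p = 1.97e-08), fell by 0.95 with Torin 1 (adjusted p = 0.000204) and changed by -1.53 with PP242 (adjusted p = 1.19e-06). It was the gene of this list called between the inhibitors, at -0.58 for PP242 minus Torin 1 (adjusted p = 0.0365). *Dctd* rose by 2.20 (adjusted p = 2.69e-06), and it was 0.99 above unstimulated cells with PP242 (adjusted p = 0.0138) and 1.45 above with Torin 1 (adjusted p = 0.000386). *Samhd1*, which degrades deoxynucleotides, fell by 0.35 on activation (adjusted p = 0.029) and was not called with either inhibitor; it was named after its values were seen.

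Related enzymes of other pairs were then set beside the CTP synthases, chosen after their values were seen. *Rrm2b*, the alternative small subunit of the reductase that p53 can induce, read 6.66, 7.13 and 6.97 with PP242, 6.67, 7.14 and 6.87 with Torin 1, 6.68, 6.57 and 6.92 with DMSO and 6.80, 6.80 and 7.06 in unstimulated cells. All 4 groups overlapped, and its changes of -0.16, 0.17 and 0.19 for activation, Torin 1 and PP242 were not called (adjusted p = 0.479, 0.596 and 0.457). The uridine-cytidine kinases *Uck2* and *Uck1* moved in opposite directions, as the CTP synthases did. *Uck2* rose by 0.90 on activation (adjusted p = 4.18e-05), and it fell by 0.45 with Torin 1 (adjusted p = 0.024) and by 0.79 with PP242 (adjusted p = 0.000265). *Uck1* fell by 0.71 on activation (adjusted p = 0.000108), with changes of 0.37 with Torin 1 (adjusted p = 0.0325) and 0.48 with PP242 (adjusted p = 0.00351).

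**Figure D4:**
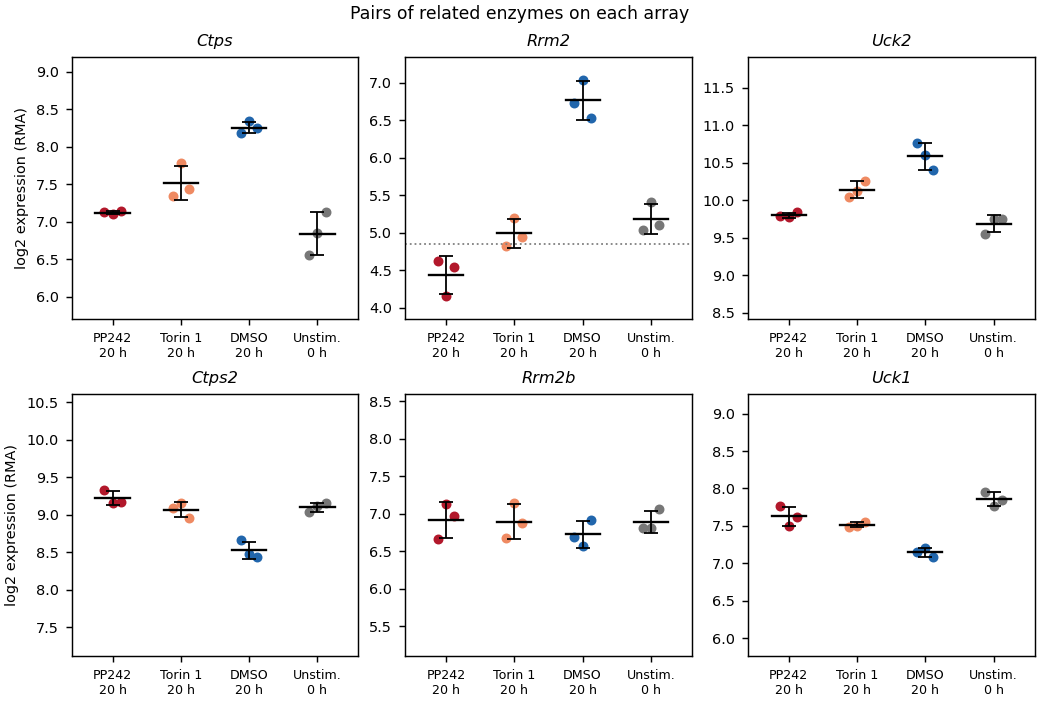
Levels of 3 pairs of related enzymes on each array in log2 units (y axes) with PP242, Torin 1, DMSO and in unstimulated cells (x axes), the member that rose on activation above its partner; points are arrays, lines means, bars 1 SD, and the dotted line is the dim level of 4.85. *Ctps2* and *Uck1* are lowest with DMSO, where their partners are highest, and the 4 groups of *Rrm2b* overlap.

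Salvage genes moved in both directions. Of 11 measured, 5 rose and 4 fell on activation, with a median change of 0.05. The nucleoside transporter *Slc29a1* rose by 1.89 (adjusted p = 2.82e-07), and it fell by 0.44 with PP242 (adjusted p = 0.0317), with a change of -0.17 with Torin 1 (adjusted p = 0.535). The cytosolic thymidine kinase *Tk1* rose by 0.89 (adjusted p = 0.0003), fell by 0.82 with Torin 1 (adjusted p = 0.00267) and by 0.96 with PP242 (adjusted p = 0.00031). Its mitochondrial counterpart *Tk2* fell by 0.79 on activation (adjusted p = 0.00313) and was not called with either inhibitor. With Torin 1, 1 salvage gene rose and 2 fell, and with PP242, 2 rose and 4 fell. Of 9 measured genes of pyrimidine breakdown, 0 were called on activation or with Torin 1, and *Upb1*, with both means under the dim level, was called lower with PP242. Among 6 measured genes tied to the supply of aspartate, glutamate or phosphoribosyl pyrophosphate, 3 rose on activation, 2 fell with Torin 1 and 3 fell with PP242. *Got2*, the mitochondrial transaminase that makes aspartate, changed by 0.97 on activation (adjusted p = 8.88e-06), -0.69 with Torin 1 (adjusted p = 0.00101) and -0.98 with PP242 (adjusted p = 2.22e-05).

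Genes of S phase entry were counted beside the enzymes. Of 18 measured, 17 rose on activation, 17 fell with Torin 1 and 17 fell with PP242, with median changes of 1.27, -1.18 and -1.34. The helicase subunit *Mcm5* rose by 2.31 (adjusted p = 2.5e-08), with changes of -1.48 with Torin 1 (adjusted p = 9.29e-06) and -2.09 with PP242 (adjusted p = 1.68e-07). Against unstimulated cells, 7 of the 18 were higher and 1 lower with Torin 1, and 0 were higher and 1 lower with PP242. Their part in the changes of the 9 enzymes was not tested. In a description over the 12 arrays, where all genes share the groups, the genes most like *Rrm2* by Pearson r were *Lig1* (0.977), *Top2a* (0.973) and *Mcm4* (0.968), while those most like *Cad* were *Rilpl2* (0.995), *Gusb* (0.995) and *Chchd4* (0.993). The highest r was 0.991 for *Ctps* (with *Mad2l2*), 0.973 for *Ctps2* (with *Ripor2*), 0.981 for *Rrm1* (with *Farsa*), 0.979 for *Tyms* (with *Ints11*), 0.948 for *Dhodh* (with *Arl14ep*) and 0.937 for *Dut* (with *Slc25a13*). On some arrays most of the 9 enzymes lay on the same side of their group means. All 9 lay below their group mean on replicate 3 of DMSO, by 0.12 on average (a mean deviation of -0.12), and 7 of 9 did so on replicate 1 of the unstimulated cells. The share of all genes that did so was not counted. Between pairs of the 9, such deviations had a Pearson r from -0.58 (*Umps* and *Dut*) to 0.81 (*Cad* and *Ctps*).

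The cells carried the markers of their label. All 10 measured genes of T cell and regulatory T cell identity were above the dim level in every group, and *Foxp3* averaged 11.65 with PP242, 11.64 with Torin 1, 11.35 with DMSO and 11.96 in unstimulated cells. Of the markers of other cells, 1 of 5 for CD8 T cells and NK cells and 2 or 3 of 4 for B cells and of 6 for myeloid cells had means above the dim level, with array means over each list from 4.67 to 5.25. Well above the dim level were *Cd8b1* and *Cd68*. *Cd8b1* averaged 7.42 with PP242, 7.40 with Torin 1, 7.68 with DMSO and 8.08 in unstimulated cells. It was called lower than unstimulated with PP242 (adjusted p = 0.0238) and Torin 1 (adjusted p = 0.00969). With DMSO its change from unstimulated cells was -0.39 and missed the threshold (adjusted p = 0.0655). Against DMSO it was not called with PP242 (adjusted p = 0.262) or Torin 1 (adjusted p = 0.284). *Cd68* averaged 7.26 with PP242, 7.14 with Torin 1, 6.65 with DMSO and 7.41 in unstimulated cells. Of 4 erythroid markers, 0 had a row with 1 symbol. Platelet markers, of which 4 of 6 were above the dim level while *Pf4* and *Ppbp* were under it in every group, had array means of 5.42 to 5.51 with PP242, 5.45 to 5.51 with Torin 1, 5.21 to 5.27 with DMSO and 5.58 to 5.69 in unstimulated cells. Some of these markers, and some of the identity genes, took the direction of *Ctps2*. *Foxp3* changed by -0.61 on activation (adjusted p = 0.000163) and 0.30 with PP242 (adjusted p = 0.0302). *Ctla4* changed by -0.53 (adjusted p = 0.0012) and 0.34 (adjusted p = 0.0308). Of the 10 identity genes, 5 were called higher and 2 lower on activation. With Torin 1, 0 were called, and with PP242, 2 were higher and 0 lower. The platelet gene *Itga2b* was lower on activation (-0.65, adjusted p = 0.000263) and higher with Torin 1 (0.53, adjusted p = 0.00511) and PP242 (0.55, adjusted p = 0.00159). The platelet gene *Itgb3* changed by -1.02 on activation (adjusted p = 0.000154) and 0.49 with PP242 (adjusted p = 0.0324), and the myeloid gene *Cd68* by -0.76 (adjusted p = 0.00388) and 0.60 (adjusted p = 0.022). With Torin 1 neither was called, at 0.31 for *Itgb3* (adjusted p = 0.259) and 0.48 for *Cd68* (adjusted p = 0.0989). The platelet genes *Gp9*, *Pf4* and *Ppbp* were not called on activation or with either inhibitor against DMSO. Also lower on activation were *Treml1*, the B cell gene *Cd79b* (-0.55, adjusted p = 0.0124), and *Ncr1* and *Klrd1*, each with both means under the dim level. *Ms4a1* was higher on activation and lower with Torin 1, with all its means under the dim level. The part of these markers in the results was not tested. Within a group, arrays correlated at 0.979 or more over all rows.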

How the data were processed

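RNA of sorted cTreg cells was measured on 12 Mouse Gene 2.0 ST arrays, and the sample labels gave 4 groups of 3. The authors made the deposited values, which are log2 expression, by robust multichip averaging (RMA), and the submitters' notes name Partek 6.6. The study's methods name another Partek version and an ANOVA with Benjamini-Hochberg adjustment. The genome build and annotation behind the array rows were not given in the sources used here. Values ran from 1.48 to 13.3, with array medians from 4.95 to 5.08, and precision is limited by the number of arrays.

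Of 41345 rows, 23521 carried 1 gene symbol, 1820 several and 16004 none, and only the first were used. For the 1082 genes with several such rows, the row with the highest mean was taken. This left 22180 genes. Gene coordinates and sequences are RefSeq's for GRCm38.p6, and 23328 rows have a gene identifier in its table. All arrays were fitted with limma 3.58.1 (R 4.3.3) as 4 group means with moderated variances (empirical Bayes), and p values were adjusted over all genes. This stands for the ANOVA of the methods. On simulated data with known changes the same fit was tested first. The dim level, 4.85, is the median of rows without a symbol; where a mean lay under it, a fold is a bound from that level. The 9 enzymes and the lists were chosen with earlier results of these data known. Besides the 9, at most 4 genes a list with the largest called changes were named, and other genes were named after their values were seen. The p values set differences of group means against the spread between these samples.

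Alternatives were quantile normalization, centring on array medians, a filter on dim genes (13114 left, all 9 enzymes among them), the median over rows, all rows in the fit, trend and robust, array weights, unmoderated variances, a fit of the compared groups alone, a block for the replicate number, a stricter p or a minimum change, and omission of each array in turn.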

Additional observations from a re-analysis of the deposited data

How the results depend on the processing

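The 54 changes of the 9 enzymes over 6 comparisons were recomputed 1188 times under 22 alternatives, and 1140 kept their direction and side of the threshold, 27 lost the call, 5 gained it and 16 turned sign. The count of enzymes called was 9 for activation and 7 for Torin 1 in every alternative, and 8 or 9 for PP242. For PP242 minus Torin 1 it was 1 with quantile normalization and 1 with the filter on dim genes (*Cad* in both), 2 with trend and robust (*Cad* and *Umps*) and 0 otherwise, whichever array was left out. For PP242 minus unstimulated it was 3, but 1 with all rows, with unmoderated variances and at an adjusted p under 0.01, 2 with centring, with the compared groups alone and with the replicate block, and 1 to 3 when single arrays were left out. For Torin 1 minus unstimulated it was 3 to 5. The changes that turned sign were all small and not called. *Ctps2* with Torin 1 against unstimulated cells was 0.0187 after quantile normalization and 0.0130 after centring, and ran from -0.0776 to 0.0206 when single arrays were left out. *Rrm1* with PP242 against unstimulated cells was 0.0204 after centring and 0.0204 with array weights, and ran from -0.199 to 0.299. *Dut* there was -0.00113 after quantile normalization and ran from -0.0272 to 0.109, and *Tyms* was -0.00266 with array weights and ran from -0.147 to 0.268. For PP242 minus Torin 1, *Rrm1* ran from -0.446 to 0.0513 (without replicate 3 of PP242) and *Tyms* from -0.322 to 0.0932 (without replicate 2 of PP242). The cause of these shifts was not tested. No pairing of the arrays by replicate number was seen: 0 of 18 same-numbered pairs had deviations that correlated above 0.1 (r from -0.07 to 0.06), and 5 of 12 arrays correlated best with their own number. The labels do not say whether a number marks a shared animal or day, and these correlations over all genes cannot settle it. With the replicate number as a block the counts were 9, 7 and 9 for activation, Torin 1 and PP242, 0 for PP242 minus Torin 1, 4 for Torin 1 minus unstimulated and 2 for PP242 minus unstimulated, where *Umps* was lost (0.52, adjusted p = 0.0658).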
